A study of Mus musculus with 2 samples.

Results

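The liver sends triacylglycerol and Chol into the blood as very-low-density lipoprotein (VLDL), a particle with a lipid core and a single molecule of apolipoprotein B on its surface. In the endoplasmic reticulum the microsomal triglyceride transfer protein, coded by Mttp, loads lipid onto apolipoprotein B while it is being made, and without this step the protein is degraded. Smaller apolipoproteins then join the particle or form high-density lipoprotein (HDL), and they set how fast lipases, receptors and lecithin-cholesterol acyltransferase act on it in plasma. The genes described here are Apob and Mttp, the C apolipoproteins Apoc1, Apoc2 and Apoc3, the triglyceride regulator Apoa5, and the apolipoproteins found mainly on HDL or on intestinal particles, Apoa1, Apoa2, Apoa4 and Apom. They were taken by symbol from the array design, which names 27962 genes in all, and these 10 genes were covered by 16 designed probes in 25 spots per array.

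The samples were livers of male C57BL/6 mice without a working Apoe gene (apoE-KO), on normal chow or on a high-Chol diet with 1.25% Chol for 1 week from 10 weeks of age. Every group carried the same knockout, so no liver with intact Apoe was compared, and particles made in these mice lack apolipoprotein E, a main ligand for their uptake by the liver. RNA from 3 independent experiments per diet was hybridized to one-colour Agilent arrays. The sources used here do not tell how many mice went into an array, and if the experiments shared material the p-values measure technical spread.

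Of the 6 arrays, the 3 normal chow arrays and 1 high-Chol array lay on slide 1, and the other two high-Chol arrays lay on slide 2. The 75th percentile of spot signal was 271 to 373 on slide 1 and 762 to 799 on slide 2, and the spots above background made up 50.5 to 67.2% of an array. All levels below are log2 signal relative to that percentile of the same array, and a level cannot be set against that of another probe. The probe for Apoe, the disrupted gene, gave 3.31, 1.66 and 3.81 with normal chow and 3.20, 3.18 and 3.56 with the high-Chol diet; whether it lies within the deleted part is not given in the sources used here. For the tissue label, the probe for Alb (albumin), the main secreted hepatocyte protein, was bright on every array, at 9.44 to 9.64 with normal chow and 9.05 to 9.38 with the high-Chol diet.

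Apob was covered by 5 probes, and their differences between the diets were of unlike size, so their sequences are shown first. They read along the plus strand of chromosome 12 in the order given, and positions are those of the array annotation, build mm7. The first is A_51_P436690 (chr12:7954595-7956804, a span longer than its 60 bases), followed by A_51_P413088 (chr12:7963823-7963882) and A_51_P380650 (chr12:7967854-7967913). The last are A_51_P470542 (chr12:7972247-7972306) and A_52_P441070 (chr12:7972307-7972366), which join end to end into 120 bases. The annotation used here gives no exon or UTR for any of them.
A_51_P436690: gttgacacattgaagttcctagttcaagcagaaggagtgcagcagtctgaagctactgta
A_51_P413088: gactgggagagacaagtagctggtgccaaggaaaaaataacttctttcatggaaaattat
A_51_P380650: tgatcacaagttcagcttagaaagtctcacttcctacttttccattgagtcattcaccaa
A_51_P470542: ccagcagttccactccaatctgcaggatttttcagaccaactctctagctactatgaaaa
A_52_P441070: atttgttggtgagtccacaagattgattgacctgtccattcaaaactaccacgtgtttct

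For the members whose values are given most fully below, the probes of Apom (chr17:33227251-33227310, minus strand), Mttp (chr3:137903223-137903282, minus strand) and Apoa5 (the probe at chr9:46228623-46228682, plus strand) read as follows.
Apom A_52_P150236: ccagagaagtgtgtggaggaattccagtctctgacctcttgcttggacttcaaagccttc
Mttp A_51_P178887: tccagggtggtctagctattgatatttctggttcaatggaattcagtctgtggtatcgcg
Apoa5 A_52_P292404: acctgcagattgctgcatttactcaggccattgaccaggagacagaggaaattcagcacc

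All 10 members had a lower mean signal with the high-Chol diet, by 0.04 (Apob) to 0.61 (Apom) on the log2 scale with a median of -0.40, but 0 passed limma at an adjusted p under 0.05. The value of Apob depends on the probe, since the brightest probe stands for a gene here: the mean of its 4 probes with a value on every array gave -0.44 (standard error 0.17, adjusted p = 0.210). The plain mean of all its probes gave -0.67, but on 1 high-Chol array that mean lacks the brightest probe. Over the 16730 genes tested, 52.2% had a difference below 0 and the median was -0.02. Limma called 2.92% of all genes, made up of 2.69% of all genes that were higher and 0.227% that were lower. Without adjustment, at a p under 0.05, 3 members were lower (Apoa1, Apoa5 and Apom), against 8.83% of all genes, and the methods' t-test gave 1 lower (Apoc1), against 8.3% of all genes, and, after adjustment, 0. The direction held for all 10 with the 75th percentile, with median scaling and in the authors' values. With median scaling and in the authors' values the median of all genes or probes was itself -0.26 and -0.27, and 9 members lay below it. A normexp background turned Apoa2, Apoa4, Apob and Apoc1 (standard errors 0.38 to 0.51 in that fit). Quantile normalization turned Apoa2 and Apob, and slide as a block turned Apoa4 and Apob. With these bulk livers, less RNA per hepatocyte and a smaller share of hepatocytes cannot be told apart.

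**Figure D1:**
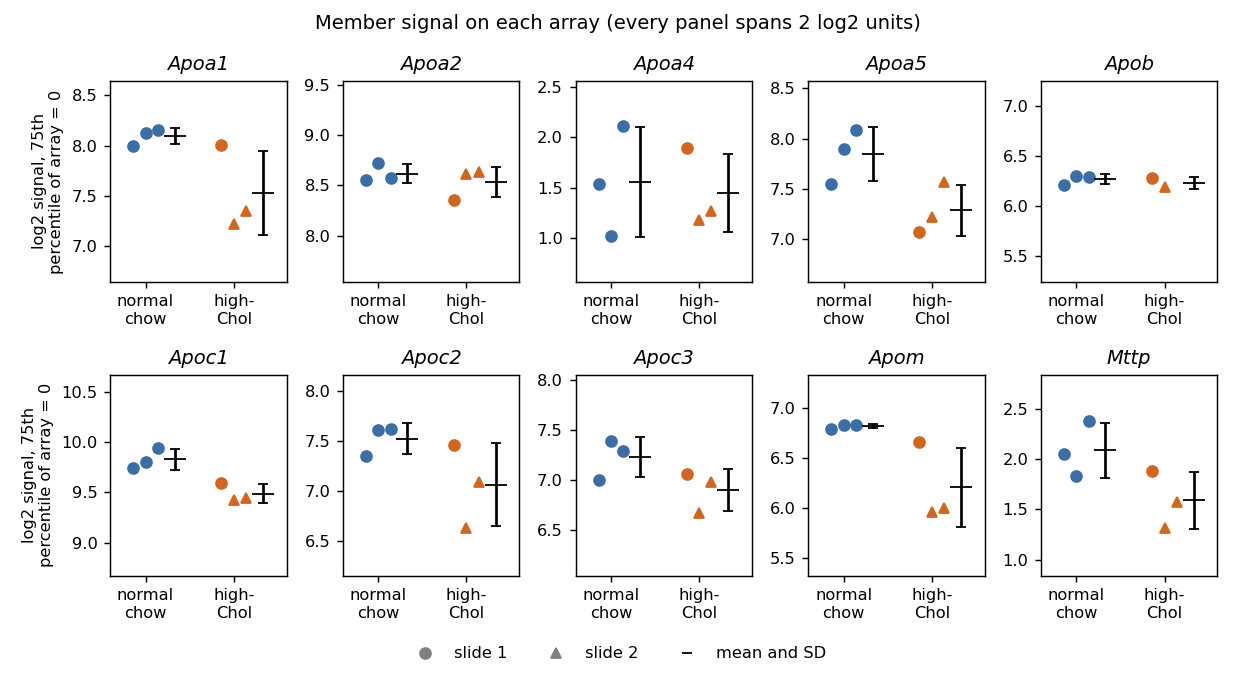
Signal of the brightest probe of each member on each array (y axis, log2 relative to the array's 75th percentile, every panel spanning 2 log2 units), with circles for slide 1, triangles for slide 2 and the mean with its SD beside the points. The 2 triangles lie below all normal chow circles for Apoa1, Apoc1, Apoc2, Apoc3, Apom and Mttp, while the high-Chol circle of Apoa1 lies among them, and the Apob panel holds only 1 triangle since the other spot was marked as an outlier.

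Apolipoprotein B is the structural protein of VLDL and LDL, with 1 copy per particle, and 0 of its 5 probes passed the test, with differences of unlike size. The probe A_51_P413088 read 2.48, 2.92 and 2.42 with normal chow and 2.10, 1.73 and 1.42 with the high-Chol diet. All high-Chol values lay below all normal chow values, the slide 1 array being the highest of them. This difference of -0.86 (standard error 0.23, 1.81-fold lower) was the largest of the 16 member probes, with a 95% interval of -1.40 to -0.31 and an adjusted p = 0.122 over 23917 probes. Of those probes, 2.61% were called, and of the 16 member probes 0.

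Further upstream, A_51_P436690 read 0.55, 0.89 and 0.62 with normal chow and 0.40, 0.09 and -0.06 with the high-Chol diet. Its groups did not overlap either, at a difference of -0.55 (standard error 0.19, adjusted p = 0.185). The third probe from the 5′ side, A_51_P380650, read -0.17, -0.10 and -0.06 with normal chow and -0.06, -0.51 and -0.80 with the high-Chol diet. There only the slide 2 arrays were low, while the high-Chol array of slide 1 was as high as the highest normal chow array, and the difference was -0.35 (standard error 0.21, adjusted p = 0.381).

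The adjacent probes at the 3′ end differed little between the diets on the 75th percentile scale. A_51_P470542 read 6.08, 6.07 and 6.10 with normal chow and 6.01, 6.08 and 6.08 with the high-Chol diet, a spread smaller than 0.1 over all 6 arrays. Its difference was -0.03 (standard error 0.14, 95% interval -0.35 to 0.30, adjusted p = 0.919). Its neighbour A_52_P441070, the brightest Apob probe and the one that stands for the gene in the counts by gene, read 6.21, 6.30 and 6.29 with normal chow and 6.27 and 6.19 with the high-Chol diet. One high-Chol spot on slide 2 was marked as an outlier and left out, so this difference of -0.04 (standard error 0.16, adjusted p = 0.908 over genes) rests on 2 high-Chol arrays.

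The split was also taken within each array, where the array's own scaling cancels. The mean of the 3 upstream probes minus A_51_P470542 was -5.12, -4.84 and -5.11 with normal chow and -5.20, -5.64 and -5.89 with the high-Chol diet. The means of the diets differed by -0.55. This grouping of probes was chosen after their values were seen, so the values are a description. An exact two-sided permutation test of them gave p = 0.1, the smallest that 3 against 3 arrays allow, and taken one by one against the same end probe the upstream probes gave p = 0.1, 0.1 and 0.4 from 5′ to 3′. These p-values support nothing further, given how the probes were chosen. On slide 1 alone the high-Chol value of -5.20 lay below the nearest normal chow array by less than the normal chow SD of 0.16.

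With a normexp background the differences were -0.37, -0.56 and -0.26 for the upstream probes from 5′ to 3′, and 0.34 and 0.08 for the end pair. Quantile normalization gave -0.53, -0.77 and -0.38 upstream and 0.13 and 0.11 at the end. Median scaling gave -0.78, -1.09 and -0.58 upstream and -0.26 and -0.21 at the end, and the authors' values gave -0.27 for both end probes, on scales where the median of all genes or probes was itself -0.26 and -0.27. With slide as a block they were -0.29, -0.50 and 0.05 upstream and -0.07 and 0.01 at the end, so the third upstream probe was then the highest of the 5. The end pair was read on 4 and 6 of the 6 arrays from a second scan at low gain, from which none of the upstream probes was read; its part in the split was not tested.

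**Figure D2:**
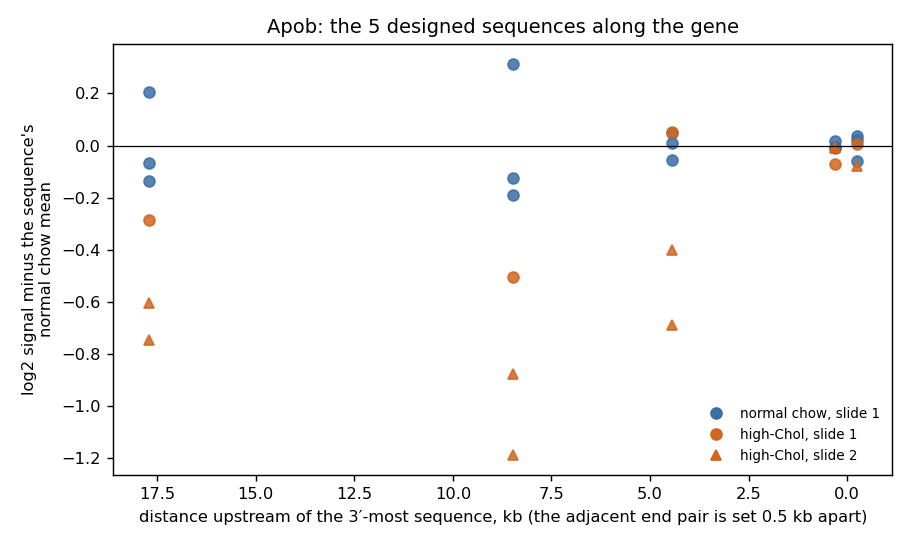
Log2 signal of each Apob probe on each array minus that probe's normal chow mean (y axis) against the distance upstream of the 3′-most probe (x axis, kb), with circles for slide 1 and triangles for slide 2. The high-Chol triangles fall to between -0.40 and -1.19 at the 3 upstream probes and stay within 0.1 of 0 at the adjacent end pair.

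Mttp, whose product is needed for any VLDL to be made, read 2.06, 1.83 and 2.38 with normal chow and 1.89, 1.32 and 1.57 with the high-Chol diet. The slide 2 arrays were below all normal chow arrays and the slide 1 array was above the lowest of them. Its difference was -0.50 (standard error 0.22, 95% interval -1.01 to 0.02, adjusted p = 0.245), which the slide block reduced to -0.20 (standard error 0.26).

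Apoa5 codes for a scarce plasma protein that raises the action of lipoprotein lipase on triglyceride-rich particles. Its brighter probe (chr9:46229126-46229185) read 7.55, 7.90 and 8.09 with normal chow and 7.07, 7.22 and 7.57 with the high-Chol diet, and the other, shown above and placed 503 bases upstream, read 6.45, 6.56 and 6.94 against 5.93, 6.06 and 6.26. Both probes gave a difference of -0.56 (standard errors 0.21 and 0.19), and the high-Chol array of slide 1 was the lowest array on each. In the fit over genes the adjusted p was 0.200. Apoa5 was the only member to pass an unadjusted p of 0.05 with slide as a block, at -0.78 (standard error 0.27, 95% interval -1.44 to -0.11, unadjusted p = 0.0289, adjusted p = 0.473). In that fit the slide 1 high-Chol array alone carried the diet, and 3.45% of all genes were lower at that unadjusted cutoff.

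The C apolipoproteins sit on VLDL, where the product of Apoc2 activates lipoprotein lipase and that of Apoc3 restrains it and slows uptake. Apoc1, which in plasma acts on lipid transfer and receptor binding, read 9.74, 9.81 and 9.95 with normal chow and 9.59, 9.42 and 9.45 with the high-Chol diet. All high-Chol arrays lay below all normal chow arrays, with the slide 1 array nearest to them. The difference of -0.34 (standard error 0.14, adjusted p = 0.237) became 0.00 with a normexp background, where the standard error was 0.44.

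Apoc2 read 7.35, 7.61 and 7.62 with normal chow and 7.46, 6.64 and 7.09 with the high-Chol diet. The slide 1 array was within the normal chow range and the slide 2 arrays were lower, for a difference of -0.46 (standard error 0.23, adjusted p = 0.292). Only 25 of the 60 bases of its probe have a position in the annotation (chr7:17353942-17353966).

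Apoc3 was read by a pair of probes on the minus strand that share 50 bases, printed in capitals, and so count as nearly the same measurement (chr9:46191393-46191452 and chr9:46191403-46191462).
A_51_P310629: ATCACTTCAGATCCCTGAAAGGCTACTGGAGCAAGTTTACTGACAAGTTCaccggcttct
A_52_P574306: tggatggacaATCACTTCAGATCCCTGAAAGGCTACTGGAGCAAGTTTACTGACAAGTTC
The former read 7.01, 7.39 and 7.29 with normal chow and 7.07, 6.67 and 6.98 with the high-Chol diet, and the latter 7.03, 7.23 and 7.26 against 7.02, 6.52 and 6.74. On both, the slide 1 array was close to the lowest normal chow array and the slide 2 arrays were lower. The differences were -0.32 (standard error 0.18) and -0.41 (standard error 0.18), with an adjusted p = 0.335 over genes for the brighter probe, and they differed from each other by less than either error.

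Apom, a lipocalin of HDL that carries sphingosine 1-phosphate, had the largest difference of the 10 genes by their brightest probes. It read 6.79, 6.83 and 6.83 with normal chow and 6.66, 5.96 and 6.00 with the high-Chol diet. The normal chow arrays agreed to within an SD of 0.02, and all high-Chol arrays were lower, the slide 1 array by far less than the slide 2 arrays. The difference was -0.61 (standard error 0.22, 1.53-fold lower, 95% interval -1.12 to -0.10, adjusted p = 0.186), against -0.16 (standard error 0.17) in the fit with a slide block.

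Apoa1, the main structural protein of HDL and activator of lecithin-cholesterol acyltransferase, had 10 spots of 1 probe on each array (chr9:46187961-46188020). The spot means were 8.00, 8.13 and 8.16 with normal chow and 8.00, 7.22 and 7.35 with the high-Chol diet, with an SD between spots of the same array of 0.04 to 0.09. The slide 2 arrays were low and the slide 1 array stood level with normal chow, so that the SD between the high-Chol arrays was 0.42. The difference was -0.57 (standard error 0.23, 1.48-fold lower, adjusted p = 0.221), against -0.09 (standard error 0.19) with a slide block.

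Apoa2, the second protein of HDL, read 8.56, 8.72 and 8.57 with normal chow and 8.36, 8.61 and 8.63 with the high-Chol diet. Here only the slide 1 array was below normal chow, whereas in Apoa1 it was the highest of the high-Chol arrays. The difference of -0.09 (standard error 0.15, 95% interval -0.45 to 0.28, adjusted p = 0.758) was within the error. Apoa4, made mainly in the intestine and to a lesser degree in mouse liver, read 1.53, 1.02 and 2.11 with normal chow and 1.90, 1.17 and 1.27 with the high-Chol diet. Its groups overlapped widely, and the difference was -0.11 (standard error 0.32, 95% interval -0.87 to 0.65, adjusted p = 0.856).

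Slide and diet overlapped in part in these data, and the members differed in which high-Chol arrays were low. Of the 9 members with a value on all 6 arrays, 2 (Apoc1 and Apom) had every high-Chol array below every normal chow array, which 14% of all genes had. Both slide 2 arrays were below normal chow in 6 members, against 25.6% of all genes, and the slide 1 array in 4 (Apoa2, Apoa5, Apoc1 and Apom), against 32.8%. When slide was fitted as a block the slide 1 high-Chol array alone carried the diet, and 8 of 10 members had a difference below 0, against 58.2% of all genes, with a median of -0.16 against -0.06. In that fit limma called 0.0658% of all genes and 0 members, and 1 member was lower at an unadjusted p under 0.05, as were 3.45% of all genes. Slide 2 held no normal chow array, so no difference could be taken within it. Without the slide 1 high-Chol array, Apoa1 (-0.81, adjusted p = 0.0159) and Apom (-0.83, adjusted p = 0.0116) passed the threshold, where 4.55% of all genes were called lower. The diets were then on different slides and cannot be told apart from them. Array weights called the same pair, with 5.3% of all genes called lower.

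**Figure D3:**
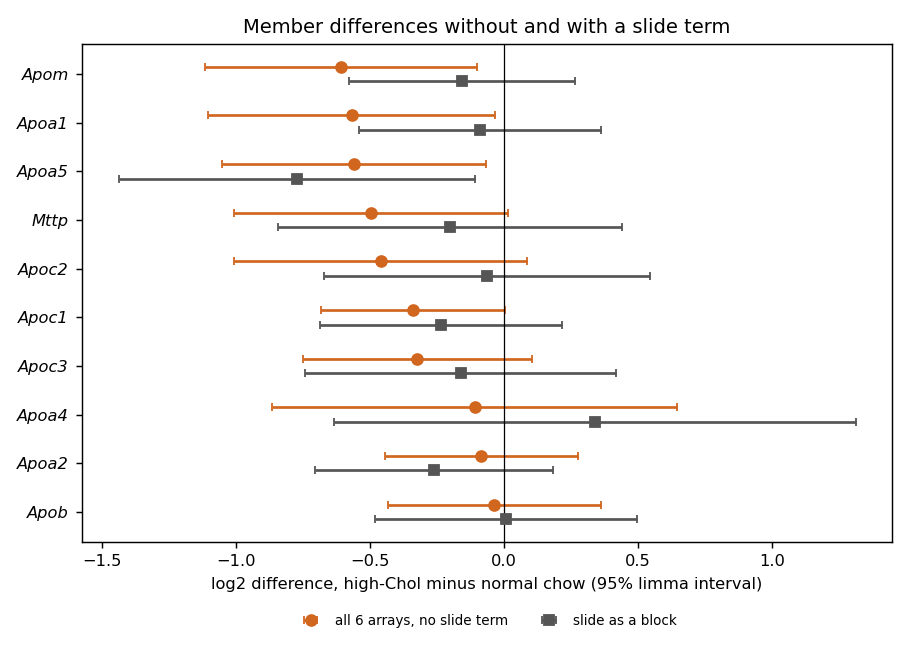
Log2 difference of each member (x axis, high-Chol diet minus normal chow) with its 95% interval from limma, for all 6 arrays without a slide term (circles) and with slide as a block (squares). Apom moves from -0.61 to -0.16 and Apoa1 from -0.57 to -0.09 with the block, while Apoa5 goes from -0.56 to -0.78.

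Most members belong to a class of genes with strong spots, whose median was below 0. The scanner read strong spots from a second, low-gain scan whose values were scaled up, for 592 to 776 spots on slide 1 and 1390 to 1404 on slide 2. In all, 429 genes were read in that way on all 6 arrays, 8 of the members among them (all but Apoa4 and Mttp). The median difference of the 429 genes was -0.27 and 89.3% of them were below 0, against a median of -0.01 and 51.2% for the 16301 other genes. Of the 429 genes 1 was called, and with slide as a block their median was -0.18. The 8 members had a median of -0.40, and 6 of them lay below the median of their class, 3 (Apoa1, Apoa5 and Apom) also below its 10th percentile of -0.53. After a normexp background the median of the class was 0.04 and that of the 10 members -0.10. The part of the low-gain scan in the members' differences was not tested.

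**Figure D4:**
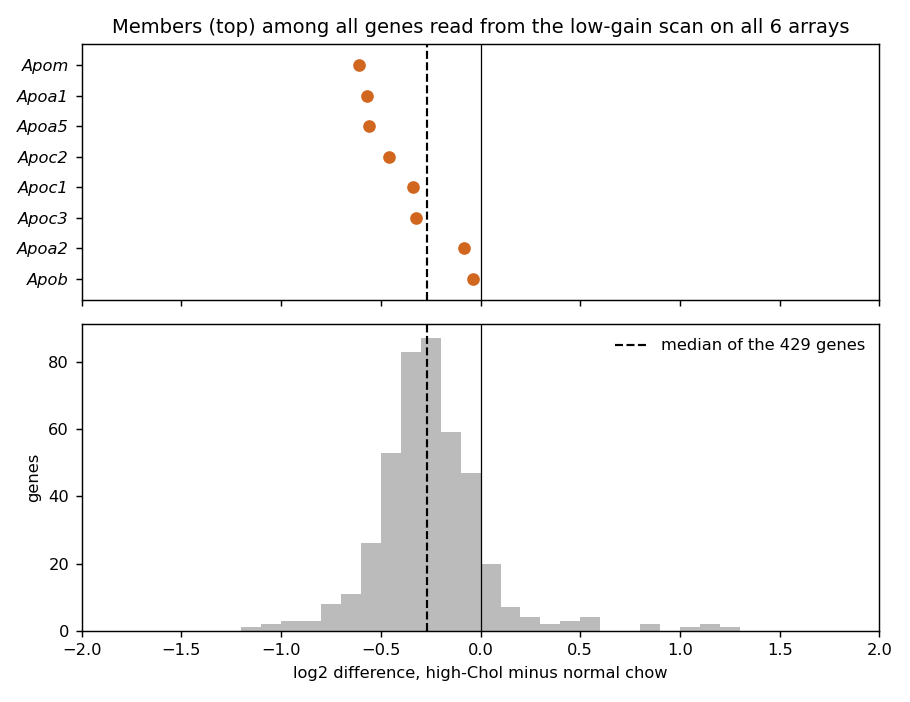
Log2 differences (x axis, high-Chol diet minus normal chow) of the 8 members read from the low-gain scan on all 6 arrays (upper panel) and the number of genes per 0.1 (lower panel, y axis) among all 429 such genes. The dashed line is the class median of -0.27; Apoa2 and Apob lie above it and the other 6 members below.

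Of 12 other proteins that hepatocytes secrete, 11 were lower and 0 were called, with a median of -0.34 on the 75th percentile scale. It became 0.01 with a normexp background and -0.12 with quantile normalization, where the members had -0.10 and -0.23. With slide as a block it was -0.23, and that of the members -0.16. Fetub (fetuin-B) at -0.57 and Plg (plasminogen) at -0.49 were the lowest, and Ttr (transthyretin) at 0.48 was the exception. In the same list Alb differed by -0.34. These proteins have no part in lipoprotein assembly.

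Among 6 other apolipoprotein genes with signal, 5 were lower and 0 were called, at a median of -0.34 that became 0.01 with normexp and -0.14 with slide as a block. Apof, which inhibits lipid transfer between lipoproteins, differed by -0.48 and Apoc4, the neighbour of Apoc2, by -0.40, whereas Apoe differed by 0.39 (standard error 0.52), a value that became -0.24 without the normal chow array that read 1.66. Of 15 partners in VLDL assembly and secretion, 11 were lower and 0 were called, with a median of -0.26 that became 0.00 with normexp and -0.20 with slide as a block. The lowest were Mia2 (-0.62, standard error 0.23) and Mia3 (-0.59, standard error 0.17), which help load large cargo into transport carriers. Apobec1, the enzyme that edits Apob mRNA so that the shorter B48 form is made, was the highest at 0.52 (standard error 0.16, adjusted p = 0.154), followed by Sort1 at 0.13 (standard error 0.38). Sort1 turned to -0.64 with slide as a block and to -0.11 with median scaling.

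The genes that act on lipoproteins in plasma or take them up had differences of both signs, at a median of -0.12 over 16 genes. A normexp background turned this median to 0.12 and slide as a block to 0.11. Lpl, lipoprotein lipase, rose from 1.44, 0.85 and 1.40 on normal chow to 3.00, 3.28 and 3.02 with the high-Chol diet. The groups were far apart and the slide 1 array was close to those of slide 2, with a difference of 1.87 (standard error 0.21, adjusted p = 0.00895). With slide as a block it did not pass (1.76, adjusted p = 0.111), nor with a normexp background (1.89), in which 0 genes of all passed, and the highest adjusted p with an array left out was 0.0468. The difference of Vldlr, 1.36 (standard error 0.56), did not pass and was 0.27 with a normexp background. Its normal chow values ran from -3.49 to -1.05.

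Of 18 transcription factors and cofactors that act on apolipoprotein and lipid genes, 15 were lower and 1 was called. Their median of -0.55 stayed below 0 with normexp (-0.24) and with slide as a block (-0.41). Creb3l3, a membrane-bound factor of hepatocytes that drives Apoa4, Apoc2 and Apoa5, fell from 6.11, 6.07 and 6.12 to 5.36, 4.82 and 5.28. All high-Chol arrays were well below normal chow, the slide 1 array included, and it differed by -0.95 (standard error 0.18, adjusted p = 0.0457). The call was lost with slide as a block (-0.74, adjusted p = 0.414), with a normexp background (-0.53) and with quantile normalization (adjusted p = 0.0875), and the highest adjusted p with an array left out was 0.178. Cebpa (-1.02, standard error 0.31) and Ppargc1b (-1.001, standard error 0.25) had larger differences that did not pass. The highest were Nr0b2, the bile-acid-induced corepressor SHP, at 1.12 (standard error 0.34) and Srebf1 at 0.22. Hnf4a, the best known activator of apolipoprotein genes, read 3.59, 3.59 and 3.62 against 3.20, 3.56 and 3.24.

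**Figure D5:**
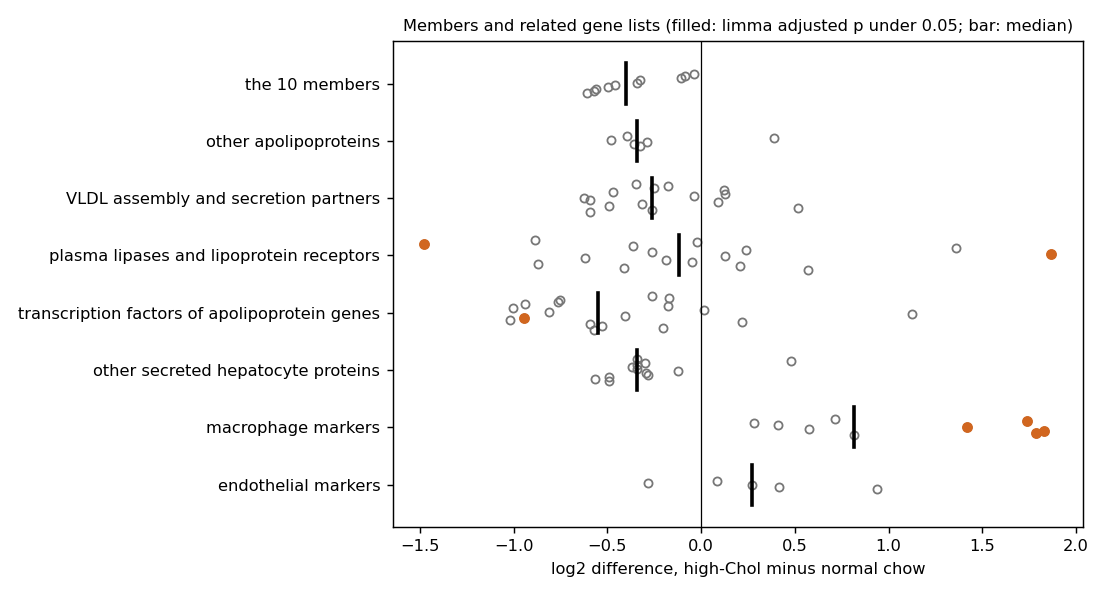
Log2 differences (x axis, high-Chol diet minus normal chow) of the 10 members and of the genes of 7 lists (rows), with 1 circle per gene, filled where limma gave an adjusted p under 0.05, and a bar at the median of each row. The median of the members is -0.40 and that of the other secreted hepatocyte proteins -0.34, and the macrophage markers are the only list with all genes above 0.

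All 9 macrophage markers were higher and 4 were called (Cd68, Cd5l, Marco and Lyz2), while with slide as a block or with a normexp background 0 were called, at list medians of 0.71 and 1.21 against 0.82. Each of the 9 passed the filter on background. Their summed signal on the log2 scale was 7.35 to 7.60 with normal chow and 8.65 to 9.08 with the high-Chol diet. Such a sum weighs the brightest probes most, here Lyz2 and Cd5l, and a high-Chol array lacked a value for Adgre1. The smallest differences of the list were those of Csf1r at 0.28 and Clec4f at 0.41. Cd68, a lysosomal protein of macrophages, had a difference of 1.74 and Cd5l, a protein secreted by liver macrophages, one of 1.42. Of 5 endothelial markers 4 were higher and 0 were called, of which Pecam1 turned with normexp, median scaling and quantile normalization, and their summed signal was 3.11 to 3.39 with normal chow and 3.43 to 3.60 with the high-Chol diet. The part of either cell type in the members' differences was not tested.

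The RefSeq table of promoters (GRCm38.p6) held 10 upstream windows of 250 bases for 8 of the members. The letters TATAAA, searched on both strands, were in windows of 3 members (Apoa2, Apoa5 and Apob) and in 12.4% of all 32851 promoters. The members are counted by gene, some with more than 1 window, and the share by window, so they are not like measures. The core CAAAGTCCA, which binds HNF4, was in 0.384% of all promoters and in 0 of the members. At that share a hit in 10 windows was unlikely beforehand, and only these exact letters were searched. The absence therefore does not tell whether the members have HNF4 sites. Since Apoa5 was the member that was lower on the high-Chol array of slide 1 with both of its probes, its window before the upstream start is shown (chr9:46268358-46268607, plus strand), with TATAAA in capitals beginning 31 bases before the start.
Apoa5 promoter: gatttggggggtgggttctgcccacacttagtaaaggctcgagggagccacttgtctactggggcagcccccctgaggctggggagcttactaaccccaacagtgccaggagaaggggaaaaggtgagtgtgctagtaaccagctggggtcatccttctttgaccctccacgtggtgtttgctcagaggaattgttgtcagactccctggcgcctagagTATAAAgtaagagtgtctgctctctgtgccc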

How the data were processed

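Liver RNA of 6 one-colour Agilent arrays, 3 per diet, was analysed. The authors deposited the scanner output, spot intensity values with the background already subtracted by Agilent Feature Extraction 9.5 (slide 1) or 9.1 (slide 2). They also deposited a table of log2 values with 1 value per probe and diet, which served as an alternative without a test. The paper's methods name Gene Spring software for normalizing and filtering, but the scaling used is not given in the sources used here. From the spot intensities, log2 signal relative to each array's 75th percentile over non-control spots was computed, outlier spots were dropped, and repeated spots of 1 probe were averaged. Probes had to be well above background on every array of 1 diet or both; each gene was represented by its brightest probe, giving 16730 genes. Diets were tested in R 4.3.3 by limma 3.58.1 (lmFit, then eBayes, without covariates), with Benjamini-Hochberg adjustment over all genes or all 23917 probes and a threshold of 0.05. The step was tested on simulated data with independent noise and no slide effect, so that test does not cover the overlap of slide and diet here. Older names on the array were matched to the lists by accession or synonym, and A1cf, Apod and Lipg had no usable value. The named genes were the members, Apoe, Alb and, of each list, those called and the 2 with the largest difference in each direction; other genes were named after their values were seen, and some single genes of the lists are not reported here. Members, lists and tests were chosen with earlier results of these data known. The alternatives were a normexp background (offset 50), median scaling, quantile normalization, other filters and probe rules, outlier spots kept, slide as a block, a trended and robust prior, array weights, the methods' t-test, each array left out and the authors' values; other scalings of every probe by itself and the mean of the probes with values on all arrays were added after seeing the data. The number of arrays limits the precision.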

Additional observations from a re-analysis of the deposited data

How the results depend on the processing

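No paired analysis was possible because no label ties a normal chow array to a high-Chol array. The count of members called, 0, became 2 with array weights (Apoa1 at -0.75 and Apom at -0.76) and ranged from 0 to 2 with an array left out. The members lower were 6 of 10 with a normexp background, 16 of 16 probes with every probe by itself, and 8 to 10 with an array left out. Their median of -0.40 became -0.10 with normexp, -0.23 with quantile normalization, -0.64 with median scaling and in the authors' values, and -0.16 with slide as a block, and ranged from -0.28 to -0.47 with an array left out. The median of all genes was -0.11 with normexp and -0.26 with median scaling, and relative to it the members' median was 0.01 and -0.38, against -0.38 on the 75th percentile scale. Genes called, 488, were 0 with normexp, 26 without a filter on dim probes, 11 with slide as a block, 2905 with array weights and 5 by the methods' t-test, and ranged from 42 (without normal chow replicate 2) to 3077 (without high-Chol replicate 1). Signs changed for Apoa2 (0.25 with normexp, 0.11 with quantile normalization), Apoa4 (0.16 with normexp, 0.34 with slide as a block), Apob (0.0761 with normexp, 0.11 with quantile normalization, 0.00638 with slide as a block; for A_51_P470542, 0.34 and 0.13 with the same 2 scalings, and for A_51_P380650, 0.0512 with the block) and Apoc1 (0.00203 with normexp). With an array left out, Apoa2 ranged from -0.13 to 0.00316, Apoa4 from -0.38 to 0.17 and Apob from -0.0791 to 0.00638. The cause of these changes was not tested. With normexp the standard errors of the members were 0.35 to 0.54, against 0.14 to 0.32 on the 75th percentile scale. Over all alternatives with a test, 164 values of single members kept their direction and side of the threshold, 12 turned and 4 came to pass it. Many of the 164 could not have turned. The other filters, the trended and robust prior and the methods' t-test left every member's difference as it was. The tally is therefore no measure of how stable the directions are.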
